A study of Homo sapiens with 9 samples.

Results

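The genes described here are 10 members of the NOTCH pathway: the ligands DLL1, DLL3 and JAG1, the receptors NOTCH1, NOTCH2 and NOTCH3, and the target genes HES1, HES5, HEY1 and HEY2. They were taken as every probe set of the expression table whose platform annotation names a single gene and that gene is a member, which gave 28 probe sets for 10 genes out of 41091 probe sets for 19775 genes. A further probe set, shared by NOTCH2 and its NOTCH2NL relatives, was not used. Where a gene had several, the one of highest mean level across all 9 arrays is called its main probe set, a choice that takes no account of group. The series followed human embryonic stem cells (hESC) on their way to otic progenitors, the early cells of the inner ear, on Affymetrix arrays that read the 3' end of transcripts. The DFNB group held cells plated on laminin for 14 days in a basal medium, DFNB, that carries the N2 and B27 supplements but no added FGF. The FGF3+10 group held cells kept for the same 14 days in DFNB to which both FGF3 and FGF10 were added, 50 ng/ml of either. The hESC group held undifferentiated cells at day 0, untreated and grown over inactivated mouse fibroblasts as feeders, with knockout serum replacement and 4 ng/ml of basic FGF. Each group held 3 arrays, 1 for each of the established lines Shef3, H14 and Shef1, and values are given in that order throughout. The spread within a group therefore includes differences between lines, and nothing in the labels says that any line was cultured more than once per condition.

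NOTCH receptors are activated by ligands of the Delta-like and Jagged families on the neighbouring cell. Cleavage then frees the intracellular part of the receptor, which enters the nucleus, joins the DNA-binding protein RBPJ and switches on genes of the HES and HEY families. These encode repressors of the basic helix-loop-helix type, which hold back neurogenesis among other fates, and in the developing inner ear of mice and chicks the pathway takes part in setting aside the sensory patches and in choosing neuroblasts, hair cells and supporting cells.

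RBPJ is known to bind near the motif GTGGGAA, and direct targets often carry it close to the start of transcription. The promoters of the target genes are therefore shown, from RefSeq on build GRCh38.p14, each covering 250 bases before to 50 bases after the transcription start and written 5' to 3' on the gene's own strand. Capitals mark GTGGGAA or its reverse complement TTCCCAC. HES1 lies on the plus strand at chr3:194135898-194136197, HES5 on the minus strand at chr1:2530214-2530513 and HEY2 on the plus strand at chr6:125749382-125749681.
HES1: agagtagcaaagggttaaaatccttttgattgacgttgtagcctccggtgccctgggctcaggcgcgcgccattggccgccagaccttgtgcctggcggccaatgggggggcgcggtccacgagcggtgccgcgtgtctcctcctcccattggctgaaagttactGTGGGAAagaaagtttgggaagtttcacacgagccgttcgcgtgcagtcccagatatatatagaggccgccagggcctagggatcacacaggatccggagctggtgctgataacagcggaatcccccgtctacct
HES5: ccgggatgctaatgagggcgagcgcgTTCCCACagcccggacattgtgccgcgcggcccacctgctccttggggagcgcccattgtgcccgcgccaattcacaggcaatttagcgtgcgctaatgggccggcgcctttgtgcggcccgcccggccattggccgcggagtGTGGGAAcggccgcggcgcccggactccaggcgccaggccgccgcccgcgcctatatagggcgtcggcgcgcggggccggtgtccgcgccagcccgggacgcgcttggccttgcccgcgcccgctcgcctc
HEY2: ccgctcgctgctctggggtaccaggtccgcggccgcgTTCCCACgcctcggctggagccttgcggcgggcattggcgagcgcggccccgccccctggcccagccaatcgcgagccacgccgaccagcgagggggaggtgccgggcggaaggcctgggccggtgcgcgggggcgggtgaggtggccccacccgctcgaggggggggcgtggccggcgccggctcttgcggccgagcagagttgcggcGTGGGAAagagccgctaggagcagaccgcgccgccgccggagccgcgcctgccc
HES1 held 1 match, at bases -85 to -79 from the start site. HES5 held 2 matches, at -224 to -218 in reverse complement and at -81 to -75. HEY2 also held 2, at -213 to -207 in reverse complement and at -4 to 3. Of 35116 promoters in the table, 6.25% held at least 1 match on either strand and 0.248% held 2 or more. The promoters of NOTCH1, NOTCH2, NOTCH3 and JAG1 held none in this window, so 3 of the 7 members with a promoter in the table had the motif. The shorter TGGGAA, which lies inside it, was in 24.0% of promoters and occurred a second time in HES1, at -70 to -65. DLL1, DLL3 and HEY1 have no sequence here.

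The values are the authors' deposited ones on a log scale, taken as log2, with every array set to a median of 3.20. A value of 4 is used as the limit below which a probe set is called dim. Levels of different genes come from different probes and were not ranked against each other. The identity of the groups was checked on marker lists, as the mean level per array. The 7 measured pluripotent cell markers averaged 2.62, 7.15 and 8.24 in DFNB and 3.13, 8.93 and 8.50 in FGF3+10, against 11.1, 10.6 and 8.99 in hESC. The Shef1 arrays thus differed least in this list, with median changes of -0.47 for DFNB minus hESC in Shef1, -3.32 in H14 and -4.87 in Shef3. Single low values weighed on the means. ZFP42 stood at -0.81, -0.92 and -0.48 on the DFNB, FGF3+10 and hESC arrays of Shef1. In Shef3, NANOG stood at -10.2 in DFNB and -7.62 in FGF3+10, and PRDM14 at -5.75 and -4.18. Of the 7, 0 passed the test in limma for either medium, with 2 for DFNB and 1 for FGF3+10 at an unadjusted p under 0.05. The poly-A spike-ins, bacterial RNAs added before labelling, averaged 7.43 to 7.50 on the 3 Shef1 arrays and 5.04 to 5.72 on the other 6, so a technical difference runs along with that line.

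HEY2 was lower on every day 14 array than on any hESC array, and HEY1, HES5 and JAG1 were higher on every one, on their main probe sets. Of all genes, 8.02% were lower and 4.23% higher on every day 14 array than on any hESC array. HEY2 encodes a repressor best known from the developing heart ventricle and arteries, and its mouse counterpart is active in the cochlea. On its main probe set, 219743_at, HEY2 stood at 5.50, 5.04 and 6.02 in DFNB and at 5.07, 5.64 and 5.75 in FGF3+10, against 7.21, 7.19 and 7.63 in hESC. The highest day 14 array was DFNB Shef1, still below the lowest hESC array. The difference between DFNB and hESC was -1.82 ± 0.35 (SE, 95% interval -2.62 to -1.02) with an adjusted p of 0.0776 in limma over all genes, and that between FGF3+10 and hESC was -1.85 ± 0.35 with an adjusted p of 0.0923. Neither passed the threshold of 0.05. HEY2 passed when values below 4 were set to 4, at adjusted p of 0.0338 and 0.0442, and when genes with a mean below 4 were left out, at 0.0394 and 0.0480. In these fits 0.664% and 0.515% of genes were called lower with the floor, and 0.252% and 0.139% without dim genes, for DFNB and FGF3+10 against hESC. The second probe set, 222921_s_at, stood at 3.52, 2.28 and 5.45 in DFNB and 3.31, 4.56 and 4.56 in FGF3+10, against 6.56, 7.45 and 7.14 in hESC. It too was lower on every day 14 array, by 3.30 ± 0.76 in DFNB and 2.91 ± 0.76 in FGF3+10 on the log2 scale. It missed the threshold when every probe set was tested on its own (adjusted p 0.139 and 0.223, limma). Of its day 14 arrays 3 were below 4, and no floor was set in that fit.

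HEY1, the paralogue of HEY2 and a further repressor downstream of NOTCH, was higher at day 14. Its main probe set, 44783_s_at, gave 8.90, 8.82 and 7.54 in DFNB and 8.58, 9.16 and 7.54 in FGF3+10, against 6.68, 6.29 and 6.37 in hESC. All 6 day 14 arrays exceeded the 3 hESC arrays, and the 2 Shef1 arrays were the lowest of the 6. The difference was 1.97 ± 0.51 for DFNB minus hESC (95% interval 0.82 to 3.13, adjusted p 0.143) and 1.98 ± 0.51 for FGF3+10 minus hESC (adjusted p 0.176), both from limma. By line, DFNB minus hESC was 2.22, 2.53 and 1.17, and FGF3+10 minus hESC was 1.90, 2.87 and 1.17. The other probe set, 218839_at, gave 8.26, 8.05 and 6.78 in DFNB and 8.0, 8.58 and 6.60 in FGF3+10, against 4.73, 4.41 and 4.72 in hESC. Its differences were larger, at 3.08 ± 0.58 and 3.11 ± 0.58, with adjusted p of 0.0874 and 0.111 over all probe sets. HEY1 and HEY2 thus lay on opposite sides of hESC on every day 14 array.

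HES5, a repressor that in mouse marks neural progenitors with active NOTCH signalling, had a single probe set, 239230_at. It gave 4.67, 5.02 and 4.96 in DFNB and 5.63, 4.53 and 5.65 in FGF3+10, against 3.94, 3.48 and 2.92 in hESC. All 3 hESC arrays were dim and all 6 day 14 arrays were not, so the groups did not overlap. The difference was 1.44 ± 0.41 in DFNB (adjusted p 0.166, limma) and 1.82 ± 0.41 in FGF3+10 (adjusted p 0.130), and with values below 4 set to 4 it was 0.89 and 1.27. The list of neural progenitor markers, which holds HES5 itself among 9 genes, averaged 6.03 to 7.84 per array in DFNB and 6.59 to 7.89 in FGF3+10, against 4.71 to 5.52 in hESC. That list was uneven: SIX3, LHX2 and PAX6 differed by 5.89, 4.86 and 3.87 in DFNB and by 7.27, 6.78 and 4.51 in FGF3+10. The differences of NES, FABP7 and SLC1A3 lay between -0.46 and 0.14 in both media, and those of SOX3 were -1.14 and -1.0. The part of these markers in the HES5 values was not tested. In bulk RNA such as this, fewer cells of a type and less RNA per cell cannot be told apart.

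HES1, a widely used NOTCH target that also answers to other signals, gave 9.0, 8.66 and 7.68 in DFNB and 8.98, 8.95 and 7.83 in FGF3+10, against 8.09, 7.14 and 6.36 in hESC, on 203394_s_at. The groups overlapped because the hESC array of Shef3 lay above the day 14 arrays of Shef1. Within each line the day 14 arrays were higher, by 0.91, 1.52 and 1.32 in DFNB and by 0.90, 1.81 and 1.47 in FGF3+10. The difference of the group means was 1.25 ± 0.56 (adjusted p 0.324, limma) in DFNB and 1.39 ± 0.56 (adjusted p 0.370) in FGF3+10. With the cell line as a replicate block in limma, the SE was 0.27 and the adjusted p 0.0822 and 0.0892. On 203395_s_at, HES1 gave 8.37, 8.10 and 7.71 in DFNB and 8.52, 8.39 and 7.91 in FGF3+10, against 7.13, 7.02 and 6.93 in hESC. There the groups did not overlap, with differences of 1.03 ± 0.32 and 1.24 ± 0.32, and neither passed over all probe sets (adjusted p 0.232 and 0.217, limma).

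**Figure D1:**
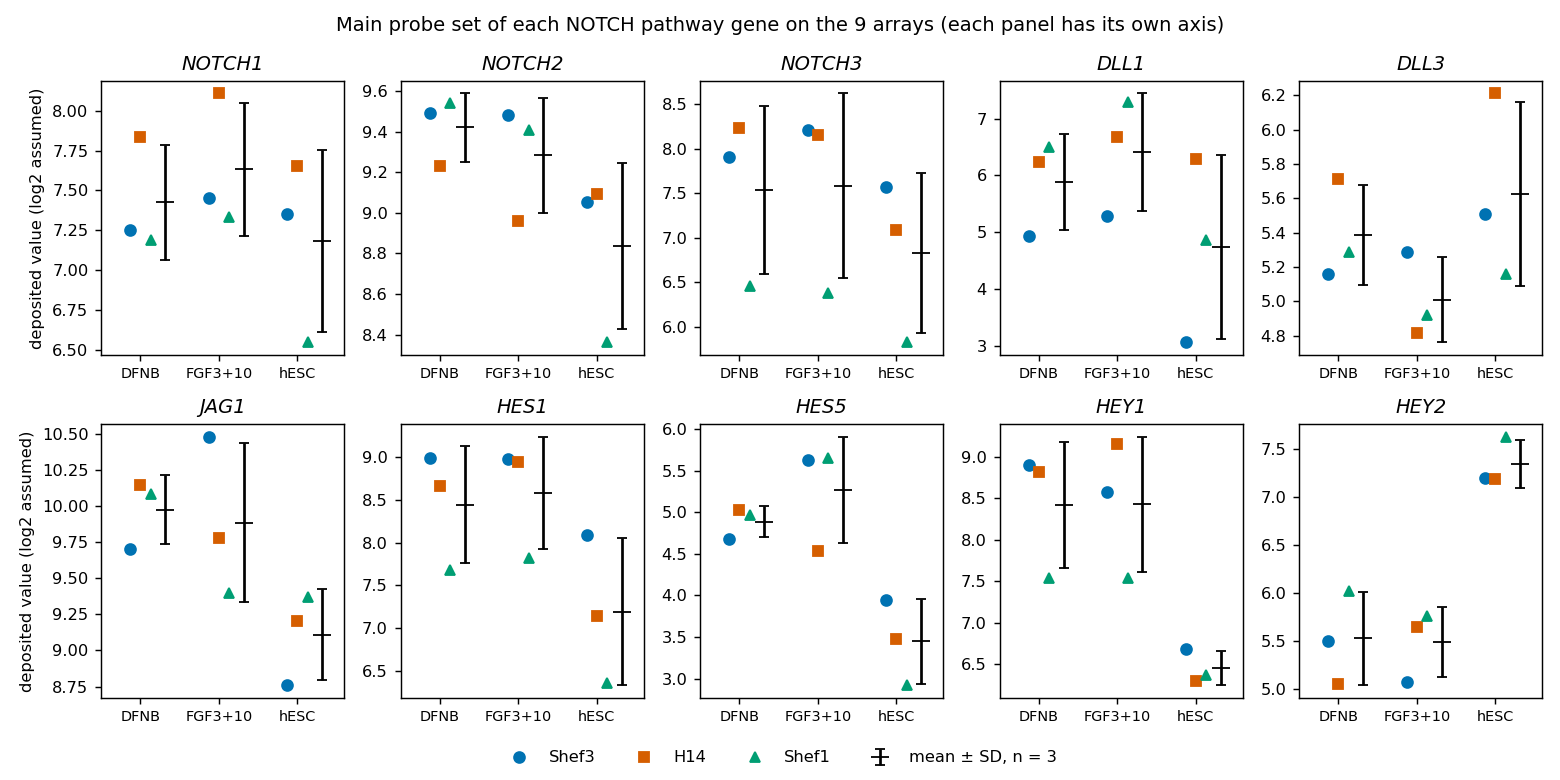
Deposited log2 value of the main probe set of each of the 10 members on each of the 9 arrays. Points are single arrays marked by cell line, and horizontal bars are group means of 3 arrays. HEY2 lies below its hESC points on all day 14 arrays, and HEY1, HES5 and JAG1 lie above theirs.

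JAG1, the Jagged ligand that marks the prosensory patches of the mouse inner ear, gave 9.70, 10.14 and 10.08 in DFNB and 10.48, 9.78 and 9.40 in FGF3+10, against 8.76, 9.20 and 9.37 in hESC, on 216268_s_at. All day 14 arrays were above all hESC arrays, by a narrow margin for FGF3+10 Shef1. The difference was 0.87 ± 0.36 in DFNB (adjusted p 0.297, limma) and 0.78 ± 0.36 in FGF3+10 (adjusted p 0.439). By line the FGF3+10 difference was 1.72, 0.58 and 0.03, so Shef3 gave most of that mean. On 209098_s_at, JAG1 gave 7.20, 7.57 and 7.0 in DFNB and 8.01, 7.06 and 6.32 in FGF3+10, against 5.66, 6.11 and 6.29 in hESC. The FGF3+10 array of Shef1 again stood just above the hESC arrays. On the other 2 JAG1 probe sets that were not dim it did not. On 209099_x_at it gave 8.93, against 8.96 in hESC Shef1, and on 231183_s_at it gave 6.78, against 6.97. On the last, DFNB also overlapped with hESC. Over the 4 JAG1 probe sets that were not dim, the change of the day 14 arrays against hESC was 0.69 to 1.17.

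DLL1, a Delta-like ligand expressed by nascent neurons and involved in lateral inhibition, varied more between arrays than any other member, with an SD of 1.28 over the 9 arrays. It gave 4.93, 6.24 and 6.50 in DFNB and 5.28, 6.67 and 7.29 in FGF3+10, against 3.06, 6.30 and 4.86 in hESC, on 224215_s_at. The hESC array of H14 was as high as its DFNB array, and the hESC array of Shef3 was dim. The changes were 1.87, -0.06 and 1.64 by line in DFNB and 2.22, 0.37 and 2.43 in FGF3+10. The group differences, 1.15 ± 0.86 (adjusted p 0.543, limma) and 1.67 ± 0.86 (adjusted p 0.478), were smaller than or about equal to the SD of 1.62 among the hESC arrays. They were 0.31 and 0.83 without the hESC array of Shef3, and 1.93 and 2.45 without that of H14, so single arrays set their size.

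DLL3, a divergent family member that does not activate NOTCH on neighbouring cells and acts in somite formation, gave 5.16, 5.72 and 5.29 in DFNB and 5.29, 4.82 and 4.92 in FGF3+10, against 5.51, 6.21 and 5.16 in hESC. The groups overlapped in DFNB and in FGF3+10, and the differences were -0.24 ± 0.35 (adjusted p 0.773, limma) and -0.62 ± 0.35 (adjusted p 0.527). The presomitic mesoderm list, of 5 measured markers, averaged 3.02 to 4.12 per array in DFNB and 3.26 to 4.26 in FGF3+10, against 3.95 to 4.47 in hESC. That list was uneven: MEOX1 was higher, by 2.20 in DFNB and 1.70 in FGF3+10, and the others were lower in both media. Of the 5 markers, 2 had a mean of at least 4. The part of this list in the DLL3 values was not tested. The other 3 probe sets of DLL3 were dim.

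Among the receptors, NOTCH2 was the one whose DFNB arrays all lay above hESC on the main probe set. This receptor is broadly expressed in progenitor cells, and on 212377_s_at it gave 9.49, 9.23 and 9.54 in DFNB and 9.48, 8.96 and 9.41 in FGF3+10, against 9.06, 9.09 and 8.36 in hESC. The FGF3+10 array of H14 lay within the hESC range. The differences were 0.58 ± 0.32 (adjusted p 0.402, limma) and 0.45 ± 0.32 (adjusted p 0.613). The 4 NOTCH2 probe sets disagreed in size, with changes of the day 14 arrays against hESC from 0.11 to 1.20. DFNB also lay above hESC on 202443_x_at, but overlapped with hESC on 210756_s_at and 202445_s_at. On 210756_s_at DFNB Shef1 stood at 5.55, below hESC Shef3 at 5.64. On 202445_s_at DFNB H14 stood at 3.82, below hESC Shef3 at 4.74.

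NOTCH1, the receptor that controls neural progenitor maintenance, gave 7.25, 7.84 and 7.19 in DFNB and 7.45, 8.11 and 7.33 in FGF3+10, against 7.35, 7.65 and 6.55 in hESC. Its differences, 0.24 ± 0.39 (adjusted p 0.798, limma) and 0.45 ± 0.39 (adjusted p 0.684), were below the SD of 0.57 among the hESC arrays. NOTCH3, a receptor prominent in smooth muscle and pericytes of blood vessels, gave 7.91, 8.23 and 6.46 in DFNB and 8.21, 8.15 and 6.38 in FGF3+10, against 7.57, 7.09 and 5.83 in hESC. In every line its day 14 arrays were the higher, yet the Shef1 arrays stayed below the hESC arrays of the other lines. The differences were 0.70 ± 0.70 (adjusted p 0.648, limma) and 0.75 ± 0.70 (adjusted p 0.702). With the cell line as a replicate block in limma, the SE was 0.26 and the adjusted p 0.197 and 0.229. The 7 smooth muscle and pericyte markers averaged 7.62 to 7.90 per array in DFNB and 6.91 to 8.27 in FGF3+10, against 6.81 to 7.62 in hESC, and DES was below 4 on all arrays. These markers were mixed, with 5 of 7 above 0 for DFNB minus hESC and 3 of 7 for FGF3+10 minus hESC. Their differences ran from -0.87 (DES) to 2.80 (ACTA2) in DFNB. The 7 endothelial markers averaged 3.33 to 3.69 in DFNB, 2.91 to 3.85 in FGF3+10 and 2.86 to 3.74 in hESC, with CDH5 and ESAM below 4 on all arrays. The part of either list in the NOTCH3 values was not tested.

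Counted together, 0 of the 10 members passed the threshold between DFNB and hESC, where limma called 0.202% of all 19775 genes, and 0 passed between FGF3+10 and hESC, where it called 0.177%. At an unadjusted p under 0.05 there were 4 members in each of these comparisons, beside 3125 and 2370 of all genes. With the cell line as a replicate block, 189 genes in place of 40 were called between DFNB and hESC and 115 in place of 35 between FGF3+10 and hESC, and still 0 members. On the main probe sets, DFNB lay above hESC without overlap for 4 members (HEY1, HES5, JAG1 and NOTCH2) and 7.80% of all genes. It lay below hESC without overlap for HEY2 and 14.3% of all genes. For FGF3+10 above hESC it was 3 members (HEY1, HES5 and JAG1) and 5.68% of genes, and for FGF3+10 below hESC it was HEY2 and 11.3%. The median change of the members was 0.79 for DFNB minus hESC and 0.76 for FGF3+10 minus hESC, beside -0.19 over all genes in each comparison. Of the members, 8 of 10 were above 0 in each, beside 39.5% of all genes for DFNB and 37.6% for FGF3+10. These comparisons share the hESC arrays and are not independent. All 10 members have a mean of at least 4, as do 11502 of the 19775 genes. The median and the share above 0 were not taken over those brighter genes alone.

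**Figure D2:**
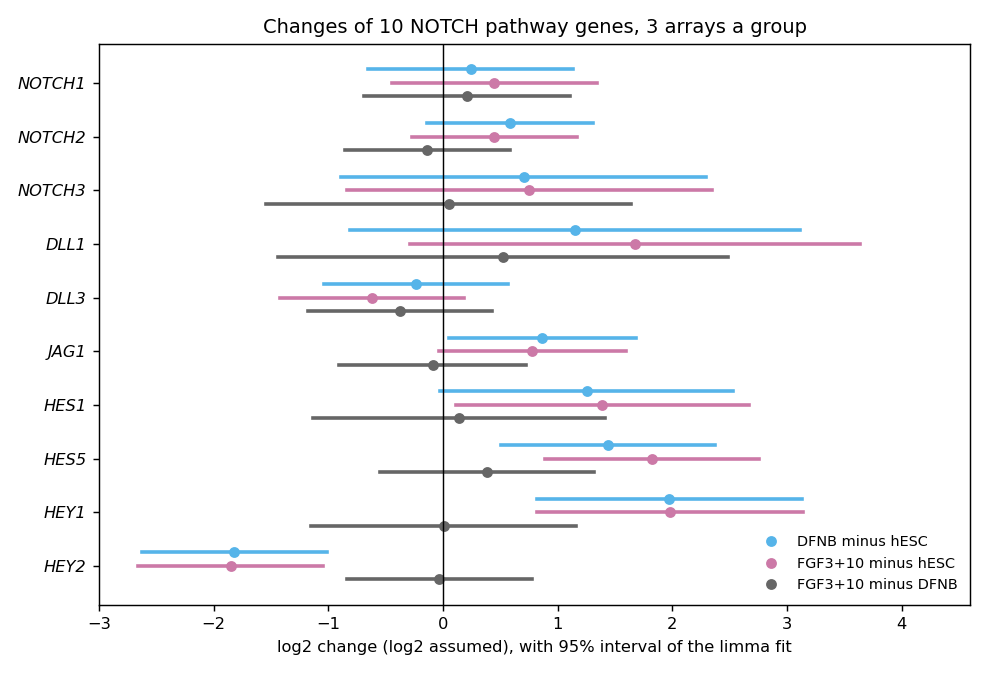
Log2 change of each member's main probe set for DFNB minus hESC, FGF3+10 minus hESC and FGF3+10 minus DFNB, with 95% intervals from limma over 9 arrays. HEY2 stands at -1.82 and -1.85 against hESC and HEY1 at 1.97 and 1.98, while every interval for FGF3+10 minus DFNB includes 0.

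A comparison of all 6 day 14 arrays with the 3 hESC arrays was added after the values were seen. HEY2 fell, by 1.84 ± 0.31 on the log2 scale (adjusted p 0.0365, limma), and was the single member called, where 0.642% of all genes were called lower. HES5 and HEY1 had differences of 1.63 ± 0.35 and 1.98 ± 0.44 and adjusted p of 0.0661 and 0.0715. Without dim genes, HES5 and HEY1 passed as well, at 0.0363 and 0.0424, where 2.80% of genes were called. This comparison counts the media of a line as separate arrays. With the media averaged by line first, HEY2 had an adjusted p of 0.107 and 0 members passed (5 at an unadjusted p under 0.05, beside 2829 genes), where 0.142% of genes were called. With the cell line as a replicate block, 3 members passed (HEY2 at 0.0264, HEY1 at 0.0363 and HES1 at 0.0410), where 3.09% of genes were called. The HEY2 call was lost in 10 of 12 fits that left out a line or a single array (adjusted p 0.0434 to 0.351 over the 12, limma), and it was kept without DFNB Shef1 and without FGF3+10 Shef1.

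No difference between FGF3+10 and DFNB passed the test for any member. Between FGF3+10 and DFNB, limma called 0 members, and 0% of all genes, with 300 of all genes and 0 members at an unadjusted p under 0.05. The difference was 0.00 for HEY1 (95% interval -1.15 to 1.16), -0.03 for HEY2 (-0.84 to 0.77) and 0.14 for HES1 (-1.14 to 1.41). It was 0.38 for HES5 (-0.55 to 1.31), whose FGF3+10 arrays of Shef3 and Shef1 were higher and that of H14 lower than the DFNB array. The largest was 0.52 for DLL1 (-1.44 to 2.49), with 0.35, 0.43 and 0.79 in Shef3, H14 and Shef1. For JAG1 it was -0.09 (-0.91 to 0.73), with 0.78, -0.37 and -0.68 by line, so the lines went opposite ways. The intervals were -0.69 to 1.10 for NOTCH1, -0.86 to 0.58 for NOTCH2, -1.54 to 1.64 for NOTCH3 and -1.18 to 0.43 for DLL3, so differences of 1 unit in either direction lie within the intervals of NOTCH3, DLL1, HES1 and HEY1. FGF3+10 was above DFNB in all 3 lines for 2 members, NOTCH1 and DLL1, beside 9.40% of genes, and below it in all 3 for 1 member, NOTCH2, beside 12.5%.

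For NOTCH3, HES1 and DLL1 the line means of the main probe sets spread over more than the difference between DFNB and hESC. NOTCH3 averaged 7.89 in Shef3, 7.82 in H14 and 6.23 in Shef1, and HES1 averaged 8.69, 8.25 and 7.29. DLL1 had another order, at 4.42 in Shef3, 6.40 in H14 and 6.22 in Shef1. In a model of group and line, the moderated F test of limma gave NOTCH3 an adjusted p of 0.0645, HES1 0.0977 and DLL1 0.126, so 0 members passed, where 0.460% of genes were called. At an unadjusted p under 0.05 there were 4 members (NOTCH1, NOTCH3, DLL1 and HES1) and 4016 genes. With values below 4 set to 4, 2 members passed (NOTCH3 at 0.0252 and HES1 at 0.0412), beside 3.49% of genes. Without dim genes the same 2 passed, at 0.0214 and 0.0409, beside 4.27% of genes. The Shef1 arrays, where NOTCH3 and HES1 were low on their main probe sets, were also the ones with high spike-ins. The part of that in these values was not tested. Whether the day 14 change itself differed between lines was tested with the media as repeats, and 0 members and 0% of genes were called, with 1 member and 3841 genes at an unadjusted p under 0.05. That member was HEY1, with an unadjusted p of 0.0338 and an adjusted p of 0.236 in limma.

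**Figure D3:**
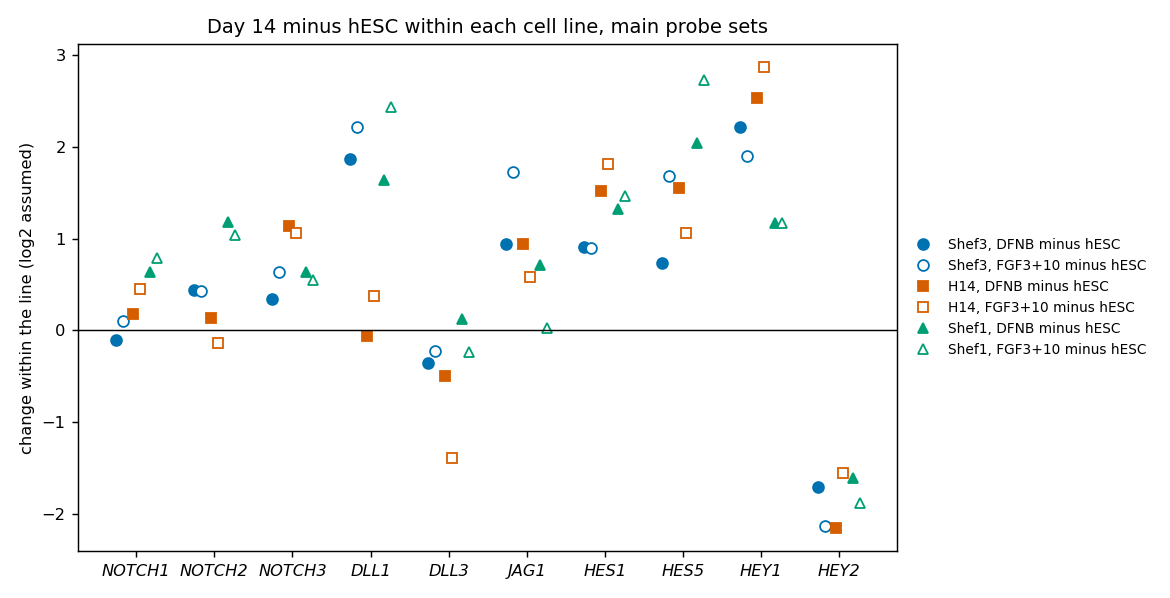
Log2 change of each member's main probe set against the hESC array of the same line, for DFNB and FGF3+10 in Shef3, H14 and Shef1. Each point is a difference of 2 arrays. HEY2 is below 0 and HEY1, HES1 and HES5 are above 0 in every line and medium, while DLL1 in H14 lies near 0.

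The probe sets of a gene were then set beside each other. Of the 28, 19 had a mean of at least 4 over the arrays, the 10 main ones among them. The 9 others of these, from NOTCH2, JAG1, HES1, HEY1 and HEY2, all had the same sign of day 14 change as the main probe set of their gene. For NOTCH2 202445_s_at that change was 0.11, from 1.12 in Shef1 and -0.40 in both Shef3 and H14. The remaining 5 genes had no second probe set at that level. A further 9 probe sets were dim and went either way, among them the second probe sets of NOTCH1 and DLL1.

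**Figure D4:**
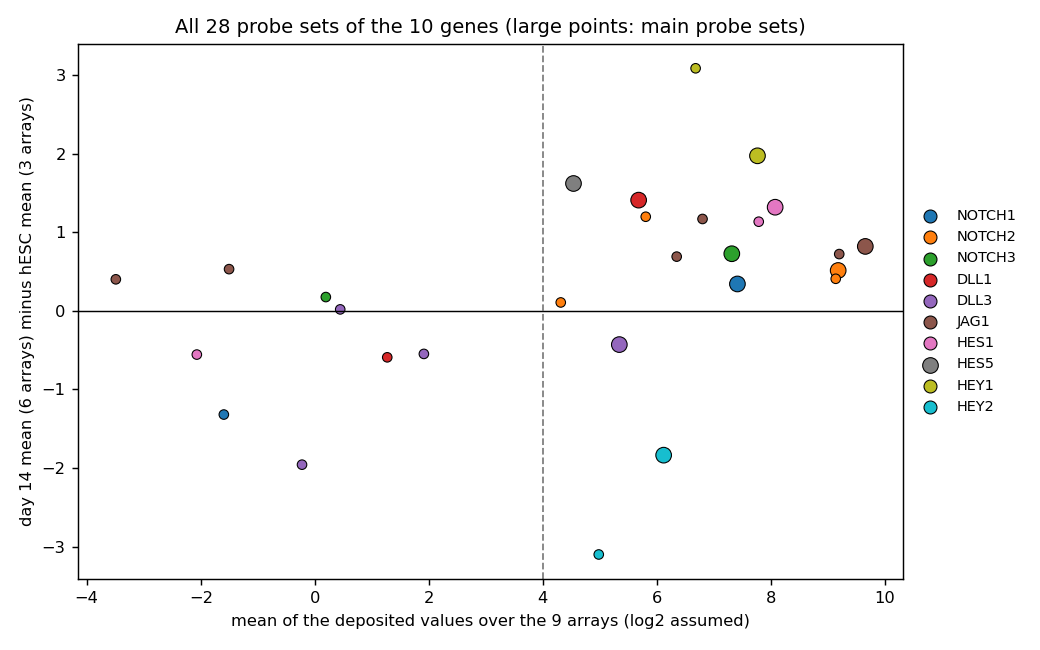
Log2 change of the 6 day 14 arrays against the 3 hESC arrays for each of the 28 member probe sets, by gene, set against the mean level over 9 arrays. The 9 probe sets with a mean of at least 4 besides the main ones share the sign of their gene's main probe set, while those below 4 scatter on either side of 0.

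Of 62 other pathway genes in 7 lists, 56 were measured, and 0 passed the threshold in any comparison of groups in limma. At an unadjusted p under 0.05 there were 7 between DFNB and hESC, 6 between FGF3+10 and hESC and 0 between FGF3+10 and DFNB. Over all 19775 genes the same counts were 3125, 2370 and 300. The median change of the 56 was 0.03 for DFNB minus hESC and 0.02 for FGF3+10 minus hESC. Over all genes it was -0.19, with dim genes counted in both. The examples are the 2 members of each list with the largest change at day 14, given as values. Of the 6 other ligands and receptors, with a median of 0.45 in DFNB and 0.38 in FGF3+10, the ligand JAG2 differed by 0.83 ± 0.57 and 1.04 ± 0.57, and DLK2 by 0.86 ± 0.59 and 0.72 ± 0.59. Of the 5 glycosyltransferases, which modify the receptors' extracellular part, LFNG differed by -0.39 ± 0.45 and 0.13 ± 0.45. MFNG, which was dim, differed by -0.74 ± 0.59 and -0.31 ± 0.59. All 4 of these genes missed the threshold.

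Of 8 measured NOTCH proteases, the gamma-secretase subunit APH1B differed by -0.84 ± 0.35 in DFNB (adjusted p 0.298, limma) and -0.76 ± 0.35 in FGF3+10 (adjusted p 0.433), and the sheddase ADAM17 by 0.23 ± 0.28 and 0.32 ± 0.28. Of 9 measured genes of the nuclear complex, the coactivator MAML2 differed by 1.33 ± 0.48 (adjusted p 0.251, limma) and 0.98 ± 0.48 (adjusted p 0.463), and MAML3 by 0.66 ± 0.40 and 0.67 ± 0.40. Of 13 trafficking and turnover regulators, the ubiquitin ligase MIB2, which in mouse and fish acts on ligand uptake, differed by 1.63 ± 0.48 (adjusted p 0.177, limma) and 1.37 ± 0.48 (adjusted p 0.303), and NEURL1B by 1.10 ± 0.43 and 0.96 ± 0.43. The medians of these lists lay within 0.19 of 0.

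The 6 other measured HES, HEY and target genes had a median of 0.90 in DFNB and 0.80 in FGF3+10, the highest of the 7 lists of other pathway genes. HES2 was below 4 on 5 of the 9 arrays, among them all those of hESC. It differed by 1.15 ± 0.68 (adjusted p 0.438, limma) and 1.72 ± 0.68 (adjusted p 0.364), and HES4 by 1.00 ± 0.65 and 0.97 ± 0.65. HES7 (-0.52 and -0.40) and NRARP (-0.83 and -0.22), an inhibitor of the pathway, had negative differences and were named after their values were seen. Of 9 measured genes in the list of proneural factors and their ID inhibitors, 5 were below 4 on all arrays, and the median was -0.39 in DFNB and -0.21 in FGF3+10. ID4, an inhibitor of such factors, differed by 1.45 ± 0.53 (adjusted p 0.251, limma) and 1.64 ± 0.53 (adjusted p 0.265). NEUROD4 was dim.

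The genes most like the 4 members with the largest spread were sought among 11501 genes with a mean of at least 4, by Pearson r over the 9 arrays. The arrays share groups and lines, so r is a description of the shared pattern. HEY1 was followed most closely by ZNF436 (r 0.998), UNC5C (0.979) and LINC02249 (0.976), which were also higher at day 14. UNC5C, a netrin receptor, differed by 4.01 in DFNB and 3.77 in FGF3+10. HEY2 was followed by TM6SF1 (0.975), MOCOS (0.972) and ATG3 (0.971), each lower at day 14. HES5 was followed by STXBP4 (0.949), SS18L1 (0.936) and the neuronal splicing factor NOVA1 (0.931), and DLL1 by NSD2 (0.949), MAPK10 (0.949) and CELF5 (0.947).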

How the data were processed

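Expression in 9 samples of 3 human embryonic stem cell lines was measured on Affymetrix 3' arrays from biotinylated antisense RNA, per the labels' protocols. The deposited log2 values per probe set were made by the authors, who brought every array to a common median of 3.20. The base of the logarithm is stated nowhere, so log2 is an assumption. How probes were summarised and background was removed is not given in the sources used here. The values ran from -14.4 to 13.3 with no floor, and no detection calls were used. The precision is limited by the number of arrays.

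Of 54675 probe sets, 41091 were annotated with a single symbol and tested, 1801 carried several symbols, and 11721 others, besides 62 controls, carried none here. For 41037 the symbol was brought up to date by Entrez ID. Groups were compared in limma 3.58.1 (R 4.3.3) by lmFit and eBayes over all 19775 genes, with a mean per group and a shared spread over 9 arrays. Differences among lines used the moderated F in a model of group and line. P-values were adjusted by Benjamini-Hochberg over all genes, at a threshold of 0.05. The fit was tested on simulated data with independent arrays and no effect of cell line, so that test does not cover lines shared between groups. The p-values measure the spread between these arrays.

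The lines occur in every group, so arrays are paired by the cell line label. Within-line correlations of the deviations from group means for DFNB with hESC were 0.105 (Shef3), 0.086 (H14) and 0.338 (Shef1). Those for FGF3+10 with hESC were 0.181, 0.258 and 0.283, and those for FGF3+10 with DFNB 0.400, 0.331 and 0.713. The highest correlation with another line, for DFNB with hESC, was 0.079, 0.173 and -0.133, so in H14 it exceeded the within-line value. For FGF3+10 with hESC and with DFNB it was below the within-line value in every line. The block is an alternative. Other alternatives were quantile normalisation, a floor of 4, leaving out genes with a mean below 4, averaging probe sets, array weights, fitting 6 arrays, and leaving out lines or single arrays. The members and lists were chosen with earlier results of these data known. All 10 members are named, with the 2 list genes of largest day 14 change and the 3 genes most like each of 4 members. Promoters are from RefSeq (GRCh38.p14), and the array's probe sequences were not used here.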

Additional observations from a re-analysis of the deposited data

Results flagged for a closer look

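NOTCH2 probe set 202445_s_at, the dimmest of its 4, stood on opposite sides of hESC in different lines at day 14: the mean of the DFNB and FGF3+10 arrays minus the hESC array was 1.12 in Shef1, -0.40 in Shef3 and -0.40 in H14. In each of these lines both media lay on the same side of hESC, and 3 dim probe sets of other members met that condition too, with lines on opposite sides. The arrays stood at 4.31, 3.82 and 5.04 in DFNB and 4.37, 3.85 and 4.72 in FGF3+10, against 4.74, 4.23 and 3.76 in hESC. A moderated F test of the difference between lines in limma gave an adjusted p of 0.222 over all probe sets. On the main NOTCH2 probe set the same difference was 1.11 in Shef1, 0.43 in Shef3 and 0.0020 in H14. Groups of 3 arrays are too small for a test of single outlying arrays.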

How the results depend on the processing

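Main counts between DFNB and hESC and between FGF3+10 and hESC were 40 and 35 genes and 0 and 0 members. They were 183 and 123 genes with values below 4 set to 4 and 122 and 66 without dim genes, each with 1 and 1 members. They were 189 and 115 with the cell line as replicate block, 1612 and 284 with array weights (2 and 2 members), and 26 and 15 from the 6 arrays of each comparison. A floor with the block, added after seeing the data, gave 426 and 226 genes (3 and 2 members). Quantile normalisation gave 66 and 45. Leaving out a line or an array gave 0 to 72 genes for DFNB and 0 to 32 for FGF3+10, with 0 members each time. Without Shef3 or without H14 both counts were 0, and without Shef1 they were 4 and 5. FGF3+10 minus DFNB gave 0 genes in every setting run. Between lines, 91 genes became 468 with the floor, 491 without dim genes (2 members in each) and 217 with probe sets averaged, and 4 to 9 without a line. Day 14 against hESC gave 277 genes and 1 member, 479 and 2 with the floor, 322 and 3 without dim genes, 612 and 3 with the replicate block, 28 and 0 with media averaged by line, and 1 to 238 genes and 0 to 2 members without a line or an array. Without a floor, the replicate block changed no call of a member in the other comparisons. With the floor it added HES1 (0.0384) and HEY1 (0.0425) for DFNB and HES1 (0.0416) for FGF3+10.

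Averaging probe sets reversed NOTCH1, to -0.46 for DFNB and -0.51 for FGF3+10 against hESC, where its second probe set is dim. Leaving out arrays moved NOTCH1 from -0.078 to 0.47 and DLL3 from -0.47 to 0.053 for DFNB minus hESC. FGF3+10 minus DFNB, near 0, changed sign readily: averaging probe sets gave -0.053 for NOTCH1, 0.12 for JAG1, -0.16 for HES1 and 0.18 for HEY2, array weights 0.16 for HEY2 and quantile normalisation 0.0011 for HEY2. Over the fits without an array or line it was -0.032 to 0.41 for NOTCH1, -0.24 to 0.024 for NOTCH2, -0.49 to 0.65 for NOTCH3, -0.53 to 0.21 for JAG1, -0.24 to 0.52 for HES1, -0.43 to 0.45 for HEY1 and -0.35 to 0.22 for HEY2. The causes were not tested. Against hESC, HEY2 stayed negative in every fit, from -2.56 to -1.58 in DFNB (adjusted p 0.0186 to 0.611) and from -2.38 to -1.64 in FGF3+10 (adjusted p 0.0323 to 0.530, limma). HEY1 stayed positive, from 1.69 to 2.52 in DFNB and from 1.53 to 2.54 in FGF3+10. Array brightness limits HES5, NOTCH2 202445_s_at, HEY2 222921_s_at and the 9 dim probe sets.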
